A study of Mus musculus with 6 samples.

Results

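The 48 genes described here encode the machinery that marks DNA replication origins, loads and starts the replicative helicase, and copies DNA at the fork. They were chosen by symbol, as the rows of the deposited gene table whose identifier was one of 48 listed names. The rule itself uses no measured value, but the list was drawn up with earlier results of these data known. All 48 were found among 23358 gene rows, and all 48 had enough counts to be among the 13784 genes tested. They were measured by RNA sequencing in MC3T3-E1 cells, a line of C57BL/6 mouse pre-osteoblasts derived from the calvaria. Cells grown to confluency had received for 16 h either DMSO, the solvent, or 1 µM of NU7441, a small molecule that blocks DNA-PK, the DNA-dependent protein kinase. Each group had 3 sequenced samples, and neither group carried a genetic change according to the labels. The design text says that triplicates within each independent experiment were pooled, and it does not tie a sample number to a culture. The p-values therefore measure the spread between these samples, which may be technical.

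In mammalian cells the origin recognition complex (ORC) binds chromatin and, with CDC6 and CDT1, loads rings of MCM2-7, the core of the replicative helicase, while geminin blocks CDT1. The CDC7-DBF4 kinase, CDC45 and the GINS complex then turn the loaded ring into a moving helicase, and polymerases alpha, epsilon and delta, the sliding clamp PCNA and its loader RFC, the single-strand binder RPA, and the flap nuclease FEN1 with DNA ligase 1 copy both strands. Transcription of many of these genes rises as dividing cells enter S phase, under factors of the E2F family, whereas several ORC subunits are made at a steadier level. MC3T3-E1 cells divide until they reach confluency and are widely used as a model of osteoblast differentiation.

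Because E2F factors are the best known regulators of these genes, the promoters were searched for the 8-letter words TTTCCCGC, TTTCGCGC, TTTGCCGC and TTTGGCGC on both strands. RefSeq promoter windows on build GRCm38.p6, which run from 250 bases before to 50 bases after a gene's start, matched 39 of the 48 genes. Of these, 17 (43.6%) held at least 1 such word, compared with 704 of 27025 mouse genes with a window (2.6%). With a 7-letter word that leaves out the first T the counts were 26 of the 39 and 10.9% of all genes with a window. This background includes genes that were not among the 13784 tested, whereas all 39 were tested. A share over tested genes alone was not computed. A match is a run of letters and not a measured binding site. The genes with no window were Gmnn, Mcm4, Gins1, Gins2, Gins4, Prim2, Pole, Rfc2 and Tipin. Among the matched genes the words were found in Orc1 and Orc3, in Cdc6 and Cdt1, in Mcm3, Mcm5, Mcm6 and Mcm7, in Mcm8 and Mcmbp, and in Gins3, Pola1, Pold1, Pold3, Pole2, Rfc3 and Lig1. None was found, for example, in the windows of both CDC7-DBF4 kinase genes, the 3 RPA genes, Pcna or Fen1, which says only that these letters are not in those windows.

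The following sequences show the word in genes from the start of licensing (Orc1, Cdc6, Cdt1), from the helicase (Mcm3, Mcm7) and from the first polymerases to act (Pola1, Pole2), and in Orc3 and Mcmbp, whose values stayed close to DMSO. Each is printed 5′ to 3′ on the strand of its gene, with the word in capitals and 10 bases on each side.
Orc1, chr4:108579417-108579444, plus strand: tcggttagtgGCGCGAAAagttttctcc
Cdc6, chr11:98908003-98908030, plus strand: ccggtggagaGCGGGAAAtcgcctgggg
Cdt1, chr8:122568037-122568064, plus strand: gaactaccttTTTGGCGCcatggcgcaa
Mcm3, chr1:20820276-20820303, minus strand: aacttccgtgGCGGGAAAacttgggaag
Mcm7, chr5:138171850-138171877, minus strand: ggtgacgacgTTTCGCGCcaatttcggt
Pola1, chrX:93632276-93632303, minus strand: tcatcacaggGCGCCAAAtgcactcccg
Pole2, chr12:69228163-69228190, minus strand: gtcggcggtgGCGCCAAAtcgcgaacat
Orc3, chr4:34614966-34614993, minus strand: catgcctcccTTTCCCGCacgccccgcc
Mcmbp, chr7:128740437-128740464, minus strand: gtggccgcgaTTTCCCGCcattgtgaga

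Mcm5 and Mcm6 held the word on both strands at once, in matches that overlap. Their whole 250 bases before the start are printed for that reason, with every match in capitals.
Mcm5, chr8:75109259-75109508, plus strand: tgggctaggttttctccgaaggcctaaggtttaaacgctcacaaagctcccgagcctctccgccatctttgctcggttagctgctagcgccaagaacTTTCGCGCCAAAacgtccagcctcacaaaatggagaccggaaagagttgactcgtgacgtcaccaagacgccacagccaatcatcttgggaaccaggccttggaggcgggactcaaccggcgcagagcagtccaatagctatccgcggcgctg
Mcm6, chr1:128359706-128359955, minus strand: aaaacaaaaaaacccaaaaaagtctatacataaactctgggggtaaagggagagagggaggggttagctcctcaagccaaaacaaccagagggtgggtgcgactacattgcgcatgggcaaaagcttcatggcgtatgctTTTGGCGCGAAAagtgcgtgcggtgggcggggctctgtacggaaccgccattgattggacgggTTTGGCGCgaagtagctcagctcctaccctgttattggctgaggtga
In Mcm6 a further match lies 47 bases before the start. Mcm3, Mcm7 and Rfc3 also held the word on both strands, in matches that did not overlap. For Mcm3 and Mcm7 not every match is printed above.

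The 6 samples held between 47312968 and 71292628 gene counts, so the least abundant of the 48 genes still had at least 152 counts in every sample. Of 7 osteoblast markers 6 could be tested, among them Runx2 at 174 CPM in DMSO (the count scaled by the library's total and its TMM factor). Runx2, Sp7 and Col1a1 did not pass the test (log2 fold changes 0.01, -0.08 and 0.00), Ibsp (-0.89) and Alpl (-0.29) fell, Col1a2 rose by 0.05, and Bglap, a marker of mature osteoblasts, had 2 to 12 counts per sample. Of the defining markers of other cell types, Ptprc and Emr1 of macrophages, Kdr of endothelium, Myod1 of muscle, Acan of cartilage and Epcam, Krt8 and Krt18 of epithelium were at 0 in every sample, but other markers were detected. In DMSO the fat-cell marker Cebpa stood at 20.9 CPM, and Csf1r, Cd68, Pecam1, Des and Cdh1 lay between 0.272 and 1.71 CPM. The summed level in RPKM (counts scaled by gene length and library total) was 6.45-6.95 in DMSO and 6.83-7.28 in NU7441 for the 5 fat-cell markers, and at most 1.41 in any sample for the 4 markers each of macrophages, endothelium, muscle and epithelium, and none of those tested passed. For the 4 cartilage markers it was 14.3-14.8 in DMSO and 15.2-16.2 in NU7441, with Sox9 (72.2 CPM in DMSO) and Col2a1 (8.49 CPM) higher of the 3 tested. The proliferation markers Mki67 (log2 fold change -1.38 ± 0.07), Top2a (-1.41 ± 0.05), Ccnb1 (-1.55 ± 0.08) and Plk1 (-1.66 ± 0.10), which peak in G2 and mitosis or mark cycling cells in general, all fell too. The part of these marker groups in the results was not tested. In bulk RNA, fewer cells of a type or cycle stage and less RNA per cell cannot be told apart.

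Messenger RNA of the replication genes was lower after NU7441 almost throughout. Of the 48 genes, 46 fell (edgeR quasi-likelihood test, adjusted p below 0.05), against a background of 16.6% of all genes tested. Gins4, a subunit of the GINS complex, was the only one that rose, against a background of 14.1%, and Orc3, an ORC subunit, did not pass the test. The median log2 fold change of the 48 genes was -0.78, against 0.01 over all genes tested, and single genes lay between -1.31 and 0.26. In 47 of the 48 genes every NU7441 sample lay below every DMSO sample, which was so for 22.2% of all genes tested. Only 4 genes fell by at least 2-fold, Dbf4, Cdc45, Mcm10 and Fen1, against a background of 1.36%. That count was 9 without NU7441 replicate 2 and 7 when libraries were scaled by their totals alone. Mcm5, Mcm8, Pole and Cdc6 lay just short of 2-fold with log2 changes of -0.99, -0.99, -0.98 and -0.98.

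**Figure D1:**
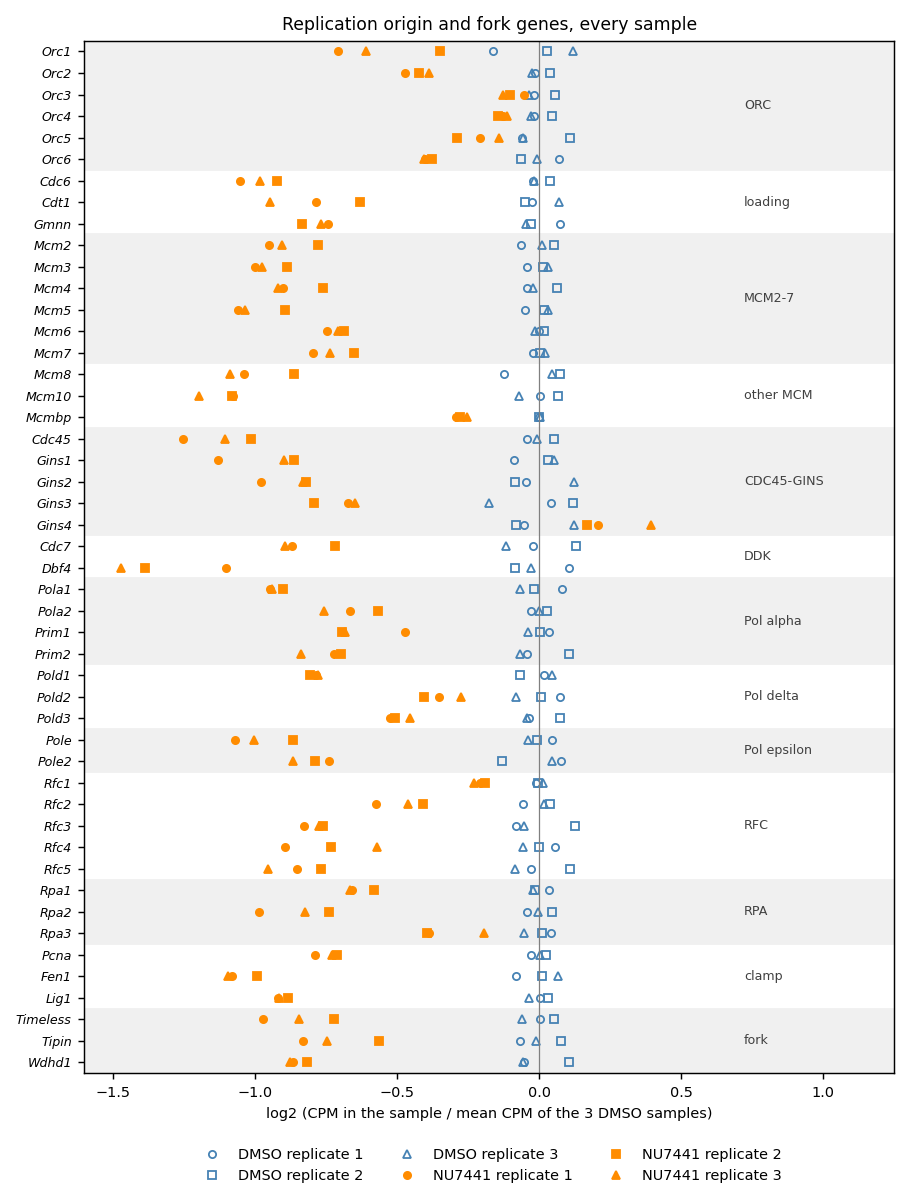
Each row is 1 of the 48 genes, grouped by role, and each symbol is 1 sample, placed by the log2 of its CPM over the mean CPM of the 3 DMSO samples. Open blue symbols are DMSO and filled orange symbols NU7441. The orange symbols lie left of the blue ones in every row but Gins4, and the gap is narrow in Orc3 and Orc4.

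The size of the fall was similar across samples. Relative to the DMSO mean, the median gene stood at log2 -0.79, -0.73 and -0.78 in the 3 NU7441 samples and at -0.02, 0.03 and -0.02 in the 3 DMSO samples. Replicate 2 of NU7441 was the highest of its group for 31 of the 48 genes, against 33.1% of all genes tested, and replicate 2 of DMSO for 25, against 31.9%. By size of change, 12 genes had a log2 fold change below -0.9, 23 lay between -0.9 and -0.6, 7 between -0.6 and -0.3 and 5 between -0.3 and 0. Those 5 were Orc3, Orc4, Orc5, Mcmbp and Rfc1. Across the 48 genes the change followed neither the DMSO level (Spearman's rho 0.21) nor the gene length (rho -0.14) closely. These genes share libraries and are not independent points.

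**Figure D2:**
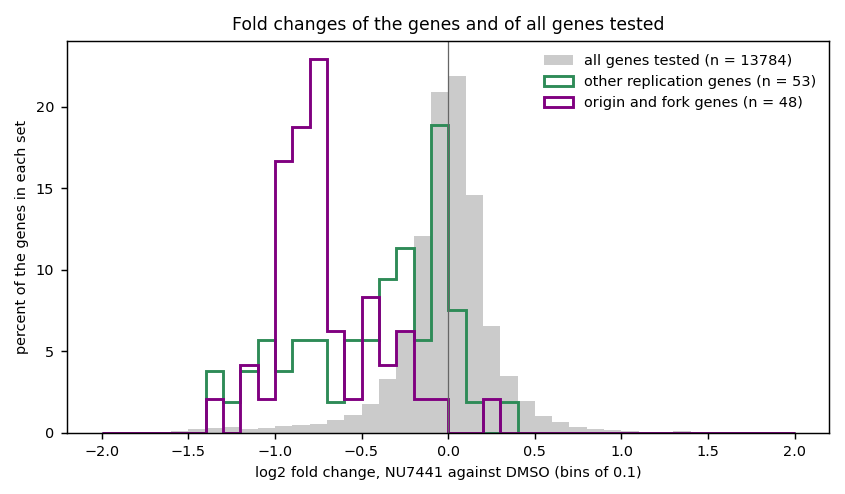
Histogram of log2 fold changes, NU7441 against DMSO, in bins of 0.1, as the percent of genes in each set. The 48 origin and fork genes (purple) centre on -0.78, the 53 other replication genes (green) spread from -1.32 to 0.36 with a median of -0.32, and all 13784 genes tested (grey) centre on 0.01.

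The origin recognition complex had the median change nearest to 0 of the 13 role groups. Of its 6 subunit genes 5 fell, with a median log2 fold change of -0.30 over the 6. ORC1, the largest subunit and the one whose protein is known to be degraded after origins are licensed, had the lowest RNA level per length of the 48 genes, at 1.88 ± 0.19 RPKM (SD, n = 3) in DMSO. Orc1 measured 6.69, 7.63 and 8.14 CPM in DMSO and 4.58, 5.88 and 4.90 CPM in NU7441. The groups did not overlap, and within each the samples spread widely around a low level. The log2 fold change of Orc1 was -0.55 ± 0.11 (SE, edgeR, adjusted p = 0.0017), the largest in the complex.

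Orc3 encodes a core subunit that stays with ORC through the cell cycle. Orc3 measured 78.4, 82.5 and 77.4 CPM in DMSO and 76.5, 74.1 and 72.8 CPM in NU7441. All NU7441 samples lay below all DMSO samples, but by less than 1 CPM between the nearest ones. Its log2 fold change of -0.09 ± 0.04 missed the threshold (edgeR, adjusted p = 0.069), and it passed in 4 of the alternatives, where adjusted p lay between 0.0251 and 0.0491. Orc4, another core subunit, measured 35.1, 36.7 and 34.9 CPM in DMSO against 32.5, 32.2 and 32.9 CPM in NU7441. The groups were separate and each was tight, with a log2 change of -0.13 ± 0.04 (edgeR, adjusted p = 0.016). Orc5, which binds ATP within the core, changed by -0.21 ± 0.06 (edgeR, adjusted p = 0.013). Without DMSO replicate 2 neither Orc4 (adjusted p = 0.057) nor Orc5 (0.0699) passed edgeR's test, nor did they without NU7441 replicate 2 (0.0618 and 0.0735), which left 3 of the 6 subunits called. Orc2, the subunit that pairs with Orc3, changed by -0.43 ± 0.04 and Orc6, the smallest and most loosely held subunit, by -0.40 ± 0.05 (edgeR, adjusted p = 1.8e-06 and 1.3e-05). Rows of Orc3, Orc4 and Orc5 share 128, 511 and 810 bases with the neighbouring genes Akirin2, Acvr2a and Gm15421, and the use of strand in the counting was not stated in the sources used here.

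The genes that load MCM2-7 onto origins all fell. CDC6 is the ATPase that joins ORC to build the loader. Cdc6 measured 23.0, 24.0 and 23.1 CPM in DMSO and 11.3, 12.3 and 11.8 CPM in NU7441. Every treated sample stood near 50.6% of the DMSO mean, and the log2 fold change was -0.98 ± 0.05 (edgeR, adjusted p = 4.3e-09). CDT1 brings the MCM2-7 ring to ORC and CDC6. Cdt1 measured 19.6, 19.3 and 20.9 CPM in DMSO and 11.6, 12.9 and 10.3 CPM in NU7441, where it varied more than in DMSO. Its log2 fold change was -0.78 ± 0.07 (edgeR, adjusted p = 1.2e-06).

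Gmnn encodes geminin, the inhibitor that binds CDT1 once S phase has begun. Gmnn measured 13.2, 12.3 and 12.2 CPM in DMSO and 7.52, 7.06 and 7.39 CPM in NU7441, in groups that were far apart. It fell by the same -0.78 ± 0.07 on the log2 scale as its target (edgeR, adjusted p = 1e-06). The ratio of Cdt1 to Gmnn, from RPKM values, was 0.66, 0.70 and 0.77 after DMSO and 0.69, 0.81 and 0.62 after NU7441. The ranges overlapped and the mean log2 ratio was -0.50 and -0.51 (two-sided exact permutation test, p = 1 with 3 samples in each group, a design in which p cannot go below 0.1).

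All 6 genes of the MCM2-7 ring, whose products sit in a hexamer in equal number, fell by similar amounts, with log2 fold changes between -0.99 and -0.71 and a median of -0.87. Mcm2, whose product also carries histones past the fork, measured 83.0, 89.9 and 87.5 CPM in DMSO and 44.9, 50.6 and 46.3 CPM in NU7441. Mcm3 measured 95.6, 99.3 and 101 CPM in DMSO and 49.3, 53.3 and 50.1 CPM in NU7441. In both genes the highest treated sample was replicate 2, and it was still far below the lowest DMSO sample. The log2 fold changes were -0.88 ± 0.05 for Mcm2 and -0.95 ± 0.04 for Mcm3 (edgeR, adjusted p = 2.7e-09 and 2.3e-10).

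Mcm4, a subunit of the catalytic core with MCM6 and MCM7, measured 96.8, 104 and 98.2 CPM in DMSO and 53.4, 58.9 and 52.7 CPM in NU7441. Mcm6 measured 161, 163 and 159 CPM in DMSO and 95.8, 99.9 and 98.6 CPM in NU7441. Mcm7 measured 94.9, 96.6 and 97.8 CPM in DMSO and 55.6, 61.4 and 58.0 CPM in NU7441. No treated sample of these 3 genes came near a DMSO sample, and replicates differed by far less than the groups. Their log2 fold changes were -0.86 ± 0.04, -0.71 ± 0.03 and -0.73 ± 0.04 in the same order (edgeR, adjusted p = 2.6e-09, 2.5e-10 and 3.3e-09). Mcm5, whose product forms with MCM2 the gate through which DNA enters the ring, measured 72.9, 76.3 and 77.0 CPM in DMSO and 36.2, 40.6 and 36.8 CPM in NU7441. It fell the most of the 6, to 50.2% of its DMSO level, with a log2 change of -0.99 ± 0.04 (edgeR, adjusted p = 5.9e-10). The 3 microRNA genes Mir106b, Mir25 and Mir93 lie within Mcm7, and their mean counts of 3.67, 11.3 and 4.0 are small beside its 4360.

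Per gene length every MCM2-7 gene was more abundant in DMSO than any of the ORC genes that load them. In NU7441 Mcm5 (8.19 RPKM) was the only exception, below Orc6 (8.95) and Orc3 (8.74). The next lowest, Mcm2 (10.4), stayed above every ORC gene. The median level of the 6 MCM2-7 genes was 23.4 RPKM in DMSO and 12.2 RPKM in NU7441, from Mcm5 (16.7 ± 0.51, SD, n = 3, in DMSO) to Mcm6 (42.0 ± 0.15). The ORC median was 7.44 RPKM in DMSO and 5.89 RPKM in NU7441, so the ratio of the 2 medians went from 3.15 to 2.07. The order of the 48 levels in DMSO ran from Pcna (90.1 ± 1.36 RPKM) through Mcm6, Gins4 (41.3 ± 3.50), Mcm7 (30.5 ± 0.57) and Rpa1 (28.1 ± 0.62) down to Mcm8, Gins3 (2.65 ± 0.26) and Orc1. Mcm6 and Gins4 did not differ beyond their spread in DMSO. In NU7441, Gins4 at 48.4 ± 3.93 RPKM stood above Mcm6 at 25.0 ± 0.19 and close to Pcna at 52.7 ± 0.66.

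**Figure D3:**
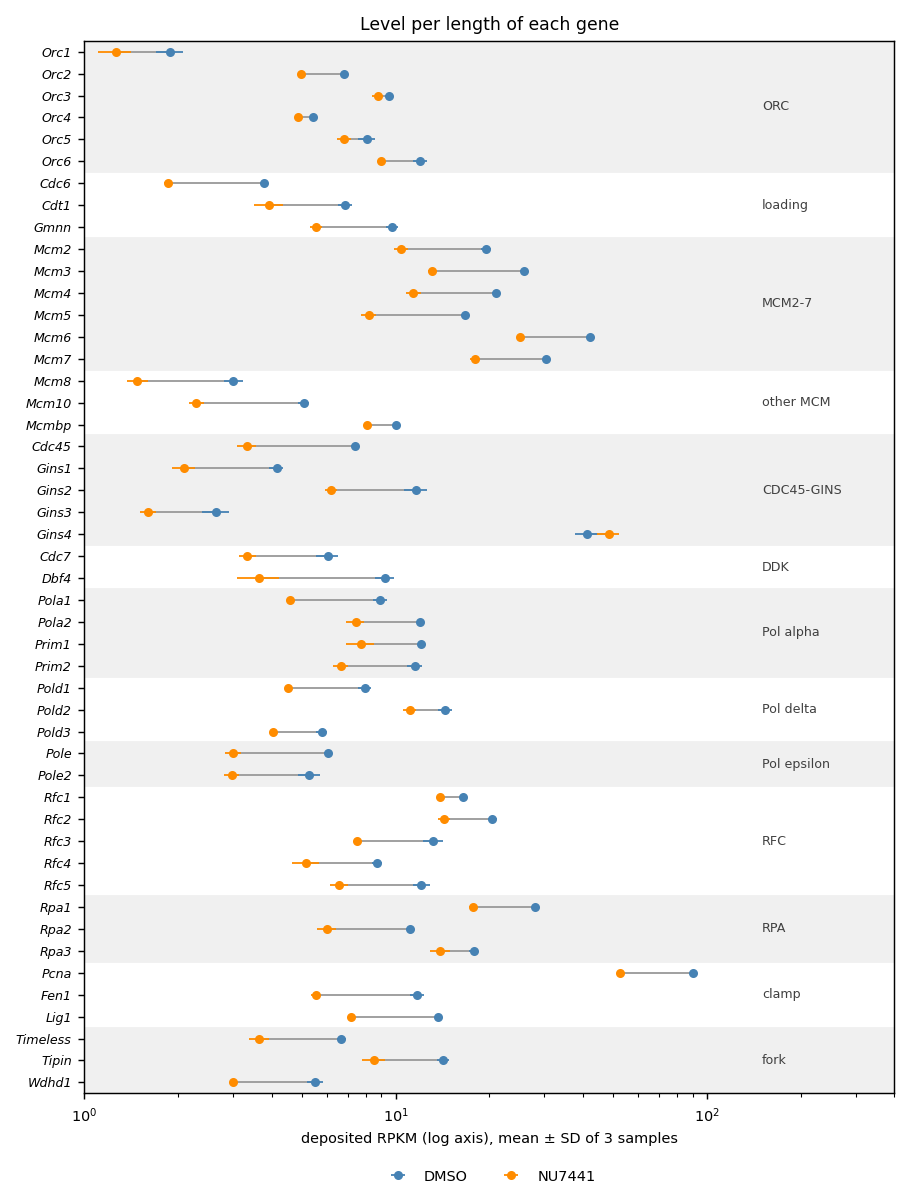
Deposited RPKM of the 48 genes on a log axis, as the mean of 3 samples with bars of 1 SD, in DMSO (blue) and NU7441 (orange), joined by a grey line for each gene. Pcna has the highest level (90.1 in DMSO) and Orc1 the lowest (1.88), and Gins4 is the only gene whose orange point lies to the right.

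Of the other MCM genes, Mcm10 and Mcm8 fell strongly and Mcmbp little. MCM10, which despite its name is not part of the ring and helps the helicase to start, is encoded by a gene that measured 23.4, 24.5 and 22.2 CPM in DMSO and 11.1, 11.1 and 10.2 CPM in NU7441. The Mcm10 groups were far apart, and it fell to 46.2% of DMSO, a log2 change of -1.11 ± 0.06 (edgeR, adjusted p = 3e-09). Mcmbp encodes an MCM-binding protein that helps to assemble and remove the rings. It measured 54.9, 54.9 and 55.0 CPM in DMSO and 44.8, 45.3 and 46.1 CPM in NU7441. Replicates of Mcmbp were almost identical, and its small change of -0.27 ± 0.03 passed the test (edgeR, adjusted p = 1.8e-05). Mcm8, which works with MCM9 in homologous recombination, changed by -0.99 ± 0.08 (edgeR, adjusted p = 4.6e-07).

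CDC45 and the 4 GINS subunits complete the active helicase, and among them were both one of the largest falls and the single rise. Cdc45 measured 20.3, 21.7 and 20.8 CPM in DMSO and 8.78, 10.4 and 9.73 CPM in NU7441. Every treated sample was well below every DMSO sample. Cdc45 fell to 46.0% of DMSO, a log2 change of -1.12 ± 0.07 (edgeR, adjusted p = 8.2e-09). Gins1, Gins2 and Gins3 encode 3 of the 4 GINS subunits and changed by -0.96 ± 0.11, -0.88 ± 0.07 and -0.70 ± 0.10 in log2 units (edgeR, adjusted p = 1.1e-05, 4.5e-07 and 8e-05).

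Gins4 encodes SLD5, the fourth subunit of the same complex. It measured 71.8, 70.4 and 81.1 CPM in DMSO and 85.9, 83.5 and 97.6 CPM in NU7441. The groups did not overlap, but the lowest treated sample was close to the highest DMSO sample, and replicate 3 was the highest in both groups. Its log2 fold change was 0.26 ± 0.06 (edgeR, adjusted p = 0.004), and it missed the threshold only with edgeR's robust fit (adjusted p = 0.0678, with the same log2 change). The deposited level of Gins4 was far from that of its partners. In DMSO, Gins4 was 15.6 times as high per length as Gins3, the lowest of the CDC45 and GINS genes, and in NU7441 30.3 times. The ratio of Gins4 to Gins2 was 3.54, 3.56 and 3.55 in DMSO and 8.07, 7.03 and 8.29 in NU7441 (two-sided exact permutation test, p = 0.1, the smallest possible with 3 samples in each group). Gins4 rose and Gins2 fell, each without overlap, so separate ratios followed from the single values and add no support. Gins2 overlaps Gse1 over 118 bases, and the mean count of Gse1, 2112, is above the 701 of Gins2. Gse1 was itself slightly lower after NU7441, with a log2 change of -0.13. Whether reads of Gse1 entered the Gins2 counts, and so this ratio, was not tested.

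The Gins4 row spans chr8:23226610-23237668 (mm10) on the minus strand. Golga7, whose product acts in protein palmitoylation at the Golgi, lies 3657 bases upstream on the same strand. Golga7 also changed upward, by 0.12 ± 0.04 in log2 units (edgeR, adjusted p = 0.037), from 83.8, 86.7 and 93.6 CPM in DMSO to 93.8, 95.1 and 98.0 CPM in NU7441. The ratio of Gins4 to Golga7 per length was 1.28, 1.21 and 1.29 in DMSO and 1.36, 1.31 and 1.48 in NU7441. Golga7 was chosen for description after the value of Gins4 was seen. Whether reads assigned to Gins4 come from a transcript that starts upstream was not tested.

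Both genes of the kinase that fires origins fell. Dbf4, the regulatory subunit that activates the CDC7 kinase in S phase, showed the largest fall of the 48 genes. Dbf4 measured 32.1, 28.1 and 29.3 CPM in DMSO and 13.9, 11.4 and 10.8 CPM in NU7441. The highest treated sample was below every DMSO sample by a wide margin, and replicate 1 was the highest in both groups. Dbf4 fell to 40.3% of DMSO, a log2 change of -1.31 ± 0.08 (edgeR, adjusted p = 9.8e-09). Cdc7, the catalytic subunit, measured 23.3, 25.9 and 21.8 CPM in DMSO and 12.9, 14.4 and 12.7 CPM in NU7441, with a log2 change of -0.82 ± 0.07 (edgeR, adjusted p = 4e-07). The Cdc7 groups did not overlap.

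The genes of polymerase alpha and its primase, which lay down the RNA-DNA primers, all fell, with a median log2 fold change of -0.70. The catalytic subunit gene Pola1 measured 66.5, 62.1 and 60.0 CPM in DMSO and 32.6, 33.7 and 32.8 CPM in NU7441. Treated samples of Pola1 were tight and far below DMSO, with a log2 change of -0.93 ± 0.04 (edgeR, adjusted p = 5.9e-10). Prim1, the primase that makes the RNA, measured 25.0, 24.5 and 23.8 CPM in DMSO and 17.6, 15.1 and 15.2 CPM in NU7441. Prim1 replicate 1 stood above the other treated samples, still below DMSO, and the log2 fold change was -0.61 ± 0.06 (edgeR, adjusted p = 2e-06). The accessory subunit genes Pola2 and Prim2 changed by -0.66 ± 0.05 and -0.75 ± 0.06 (edgeR, adjusted p = 3.9e-08 and 9.5e-08).

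All 3 listed genes of the lagging-strand polymerase delta fell, with a median log2 fold change of -0.49. Pold1, the catalytic subunit, measured 36.4, 34.3 and 37.1 CPM in DMSO and 20.9, 20.6 and 21.0 CPM in NU7441. Pold2, the accessory subunit that bridges the others, measured 32.2, 30.8 and 28.9 CPM in DMSO and 24.0, 23.1 and 25.3 CPM in NU7441. Both genes had groups that did not overlap, but the gap was narrower in Pold2. The log2 fold changes were -0.79 ± 0.04 for Pold1 and -0.34 ± 0.05 for Pold2 (edgeR, adjusted p = 2.6e-09 and 8.4e-05), and Pold3, which contacts PCNA, changed by -0.49 ± 0.05 (edgeR, adjusted p = 4e-06). The difference between Pold1 and Pold2 was not tested. The Pold2 row shares 46 bases with Aebp1, which changed by 0.20 on the log2 scale. The mean count of Aebp1, 50327, is far above the 1528 of Pold2. Whether any Pold2 counts came from Aebp1 is not known, because the counting settings were not given.

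Both listed genes of the leading-strand polymerase epsilon fell. Pole, the catalytic subunit, measured 58.9, 56.7 and 55.6 CPM in DMSO and 27.2, 31.3 and 28.5 CPM in NU7441. Pole2, which holds the catalytic subunit to the helicase, measured 12.4, 10.8 and 12.2 CPM in DMSO and 7.07, 6.84 and 6.47 CPM in NU7441. Neither gene had overlapping groups. The log2 fold changes were -0.98 ± 0.05 for Pole and -0.80 ± 0.08 for Pole2 (edgeR, adjusted p = 1.2e-09 and 2.5e-06).

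The clamp loader genes all fell, but unequally. Rfc1, the large subunit of the loader, measured 102, 102 and 103 CPM in DMSO and 88.6, 89.7 and 87.2 CPM in NU7441. Rfc5, a small subunit, measured 27.2, 29.9 and 26.2 CPM in DMSO and 15.4, 16.3 and 14.3 CPM in NU7441. Replicates of Rfc1 were within 3 CPM of each other in both groups, so that its small change of -0.21 ± 0.03 was still called, beside -0.85 ± 0.06 for Rfc5 (edgeR, adjusted p = 0.00012 and 6.2e-08). The remaining small subunit genes Rfc2, Rfc3 and Rfc4 changed by -0.48 ± 0.05, -0.78 ± 0.06 and -0.72 ± 0.08 (edgeR, adjusted p = 1.3e-06, 2.5e-07 and 7.4e-06). Rfc4 shares 185 bases with Eif4a2, which had a mean count of 17217 against 630. Eif4a2 was itself slightly higher after NU7441, with a log2 change of 0.1 (edgeR, adjusted p = 0.027). Whether reads of Eif4a2 entered the Rfc4 counts was not tested.

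Replication protein A coats single-stranded DNA at the fork, and the genes of its 3 subunits fell. Rpa2, the subunit that checkpoint kinases phosphorylate, measured 25.3, 26.9 and 26.0 CPM in DMSO and 13.1, 15.6 and 14.7 CPM in NU7441. Rpa3, the smallest subunit, measured 15.4, 15.1 and 14.4 CPM in DMSO and 11.5, 11.4 and 13.1 CPM in NU7441. In Rpa3, treated replicate 3 came close to the DMSO samples without reaching them. The log2 fold changes were -0.85 ± 0.06 for Rpa2 and -0.32 ± 0.07 for Rpa3 (edgeR, adjusted p = 5.7e-08 and 0.0022), with -0.63 ± 0.03 for Rpa1, the large DNA-binding subunit (edgeR, adjusted p = 4e-09).

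The sliding clamp and the enzymes that join Okazaki fragments fell together. Pcna, the clamp, measured 147, 153 and 150 CPM in DMSO and 86.9, 91.6 and 90.6 CPM in NU7441. Fen1, the nuclease that trims the displaced primer flap, measured 32.5, 34.6 and 36.0 CPM in DMSO and 16.3, 17.3 and 16.1 CPM in NU7441. The groups of both genes were far apart. The log2 fold changes were -0.74 ± 0.03 for Pcna and -1.06 ± 0.05 for Fen1 (edgeR, adjusted p = 3.7e-10 and 7.6e-10), and Lig1, the ligase that seals the nick, changed by -0.90 ± 0.04 (edgeR, adjusted p = 1.7e-10). Processed copies of Pcna exist in the mouse genome, so its value is uncertain to the extent that reads were shared with them. The Lig1 row overlaps 6330408A02Rik over 1409 bases, a gene with a mean of 564 counts and a log2 change of 0.02 (edgeR, adjusted p = 0.91).

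The 3 fork protection genes changed by nearly the same amount. Timeless and Tipin encode a pair that travels with the fork and passes on checkpoint signals, and WDHD1 (AND-1) tethers polymerase alpha to the helicase. Wdhd1 measured 29.3, 32.8 and 29.3 CPM in DMSO and 16.7, 17.3 and 16.6 CPM in NU7441. Tipin measured 21.7, 23.9 and 22.5 CPM in DMSO and 12.8, 15.4 and 13.5 CPM in NU7441. Replicate 2 was the highest sample of each group in both genes, and no treated sample reached a DMSO sample. The log2 fold changes were -0.85 ± 0.05 for Wdhd1, -0.71 ± 0.07 for Tipin and -0.84 ± 0.05 for Timeless (edgeR, adjusted p = 1.2e-08, 1.4e-06 and 2.2e-08).

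The median log2 fold change was -0.78 for the 17 genes with an E2F word in their window and -0.73 for the 22 without. Genes that carry the word ranged in log2 change from -0.99 (Mcm5 and Mcm8) to -0.27 (Mcmbp) and -0.09 (Orc3). Those without it included the genes with the largest falls, Dbf4, Fen1, Cdc45 and Mcm10. They also included Orc4 (-0.13), Orc5 (-0.21) and Rfc1 (-0.21), whose falls were small. The genes were not split by the 7-letter word. A CCAAT box (CCAAT, both strands) was found in 22 of the 39 genes (56.4%), against 41.1% of all genes with a window, tested or not. The median log2 change was -0.72 with it and -0.80 for the 17 without. The CHR word of late cell-cycle genes (TTTGAA, both strands) was found in 7 (17.9%), against 20.2%, with medians of -0.88 with it and -0.73 for the 32 without. None of these differences was tested.

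Of the 48 genes, 15 start within 1 kb of a gene that runs away on the opposite strand, with gaps of 15 to 465 bases between the starts, so that the 2 genes share the DNA between them. Of the 15 partner genes 5 fell and 0 rose (edgeR, adjusted p below 0.05), where 16.6% of all genes tested fell and 14.1% rose, with a median log2 fold change of -0.07 against -0.75 for the replication genes of the same pairs. At an unadjusted p below 0.05, 6 partners were lower and 0 higher, and 0 were higher by DESeq2 or limma-voom. The count of partners that fell was 2 without DMSO replicate 2, 3 without any other single sample and 3 with upper-quartile scaling. In 14 of the 15 pairs the replication gene had the lower value, but the list was chosen with earlier results known. How often such a gene lies below any other gene was not computed. The partners Pxmp2 and 1700001G17Rik were barely expressed, at 1.04 and 0.549 CPM in DMSO. With SEs of 0.25 and 0.28 on the log2 scale, a small change in them could not have been called.

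Mcm4 forms one such pair with Prkdc, the gene of the catalytic subunit of the kinase that NU7441 inhibits. Mcm4 lies at chr16:15623897-15637400 on the minus strand, and Prkdc starts 465 bases away at 15637866 on the plus strand (mm10). Prkdc measured 48.6, 50.9 and 48.8 CPM in DMSO and 42.7, 46.2 and 45.9 CPM in NU7441, a small fall without overlap (log2 fold change -0.14 ± 0.04, edgeR, adjusted p = 0.016). The ratio of Mcm4 to Prkdc per length was 7.04, 7.22 and 7.12 in DMSO and 4.42, 4.51 and 4.05 in NU7441 (two-sided exact permutation test, p = 0.1, the smallest possible with 3 samples in each group). Slc25a40, which starts 133 bases from Dbf4, changed by -0.07 ± 0.06 and Ufd1l, 321 bases from Cdc45, by -0.04 ± 0.03 on the log2 scale, and neither passed edgeR's test (adjusted p = 0.41 and 0.37). The exception was Orc3, where the partner Rars2, 15 bases away, changed by -0.21 ± 0.04 (edgeR, adjusted p = 0.00095) and Orc3 itself by -0.09.

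**Figure D4:**
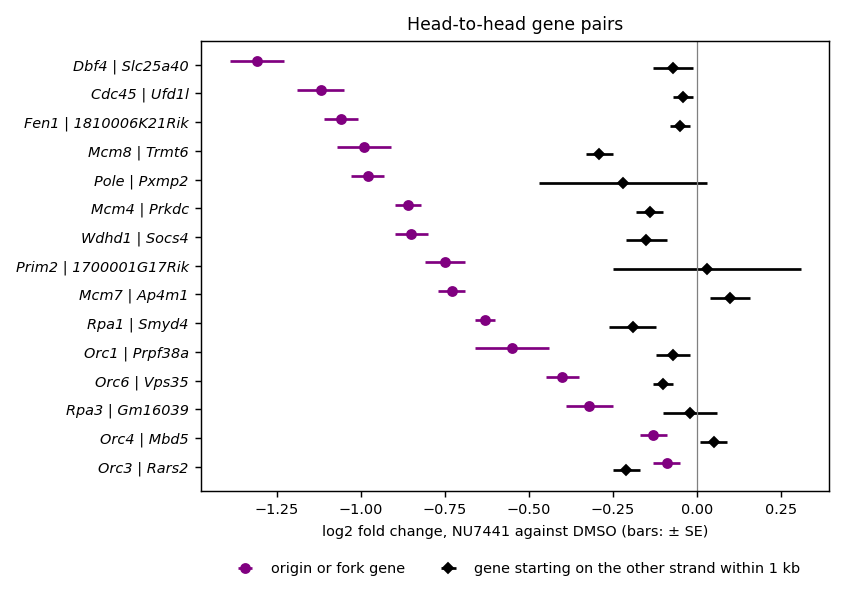
Log2 fold change, NU7441 against DMSO, of 15 replication genes (purple circles) and of the gene that starts on the other strand within 1 kb (black diamonds), with bars of 1 SE from edgeR. The circles run from -1.31 (Dbf4) to -0.09 (Orc3) while the diamonds stay between -0.29 and 0.10.

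Of 53 other genes that serve replication, all tested, 36 fell (16.6% of all genes did), 2 rose (14.1% did) and 15 did not pass. Their median log2 change was -0.32, and 8 fell by at least 2-fold (1.36% did). The 5 largest changes were those of 2810417H13Rik, the PCNA-associated factor PCLAF (-1.32 ± 0.07, edgeR, adjusted p = 2.4e-09), Dscc1, part of an alternative clamp loader (-1.30 ± 0.13, 2.2e-06), Traip, a ubiquitin ligase that helps to unload the helicase (-1.24 ± 0.10, 3.1e-07), 5730590G19Rik, the firing factor TICRR (-1.19 ± 0.06, 1.3e-09), and Clspn, the checkpoint mediator claspin (-1.12 ± 0.07, 2.2e-08). The 2 that rose were Pold4, the smallest subunit of polymerase delta (0.36 ± 0.05, edgeR, adjusted p = 0.00015), and Fbxo18, the helicase FBH1 (0.12 ± 0.03, 0.01), and the count was 1 without DMSO replicate 1. Pold4 thus moved opposite to Pold1, Pold2 and Pold3, as Gins4 did to Gins1, Gins2 and Gins3. Pold4 measured 27.3, 25.2 and 24.6 CPM in DMSO and 35.1, 33.2 and 30.5 CPM in NU7441, with no overlap between the groups.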

How the data were processed

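The authors deposited counts, RPKM values and gene lengths for 23358 gene rows, per the file headers. The submitters' processing notes name bcl2fastq, TopHat2 2.0.6, HTSeq and build mm10, with settings not given in the sources used here. All deposited counts are even, so a read pair seems to count as 2. Genes passed filterByExpr at a minimum count of 10 and a minimum total of 15. They were scaled by TMM and compared with edgeR 4.0.16 (R 4.3.3, quasi-likelihood, two-sided, no covariate), with Benjamini-Hochberg adjustment over 13784 genes, threshold 0.05. The deposited RPKM values served for levels and ratios. DESeq2 1.42.0 and limma 3.58.1 were alternatives. Of all genes 2290 were lower and 1941 higher, or 1919 and 2488 with upper-quartile scaling. On simulated counts for NU7441 against DMSO (13663 genes) edgeR found 74% of changes of 1.25-fold, 96% of those of 1.5-fold and 100% of those of 2-fold, with 10 of 195 calls false. Only genes with a mean count of at least 100 were changed, 50 at each fold, far fewer than were called in the data. These rates therefore need not hold for genes with low counts or for the real comparison. Replicates differed beyond sampling noise and were each counted once. Gene starts came from the deposited table and strands from GENCODE M21. The members and gene lists were chosen with earlier results of these data known. Orc4 was shown in every sample although it lies outside the rule for named genes. This rule gave values in every sample for Mcm2 to Mcm7 and for the lowest and highest fold change of each other role group. It also gave them for genes that rose or did not pass. Of the other replication genes it took the 5 largest changes and those against the direction of most. Head-to-head partners, Golga7 and overlapping genes were named after their values were seen. Among the per-sample ratios only that of Cdt1 to Gmnn was planned.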

Additional observations from a re-analysis of the deposited data

How the results depend on the processing

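The 48 genes were refitted under 16 alternatives. Of 768 gene values, 759 kept direction and call, 5 lost the call, 4 gained it and 0 reversed. Losses were those of Orc4 and Orc5 without replicate 2 of either group and of Gins4 in the robust fit. Gains were all of Orc3. Between 44 and 47 genes fell in every alternative over all 48 genes, and 39 of the 40 genes that share no positions with another gene. The robust fit left 0 genes higher. Genes lower by at least 2-fold numbered 7 with library totals alone and 4 to 9 when 1 sample was left out. The median log2 fold change lay between -0.78 and -0.74 when 1 sample was left out. Other replication genes that rose numbered 1 to 2, and head-to-head partners that fell 2 to 3, when 1 sample was left out. With upper-quartile scaling, 3 partners fell. With the 7-letter E2F word, chosen after seeing the data like the partner counts, 26 genes matched. Same-numbered samples correlated in their deviations by 0.346, 0.267 and 0.035, and differently numbered ones by -0.367 to 0.155. The main fit did not pair samples by number, because no label ties a number to a culture. These correlations do not exclude a structure shared by number. With a replicate block 47 of the 48 genes fell with a median of -0.78, and 2703 genes in all were lower and 2417 higher. Samples 1 and 2 of both groups correlated best with their own number. DMSO 3 correlated best with NU7441 2 (0.155), and NU7441 3 with DMSO 1 (0.071). Depth limited no call of presence, since every gene had at least 152 counts per sample.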
